A study of Mus musculus with 2 samples.

Results

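The cytotoxic granule programme was followed through 10 genes: the granzymes Gzma, Gzmb, Gzmk and Gzmm, the pore-forming protein perforin (Prf1), the granule-associated genes Nkg7, Srgn and Ctsw, the death ligand Fasl and the chemokine Ccl5. They were taken by name from the 32285 genes counted in both matrices, and all 10 were found. The cells were TCRβ+ lymphocytes of mice aged 14 weeks, pooled from the spleen with inguinal and cervical lymph nodes, loaded as 1 multiplexed 10x Genomics 3′ library in which Hashtag 1 marked the Foxp3Cre WT mouse and Hashtag 2 the DKO-severe mouse, a Foxp3-Cre Tet2/3 fl/fl animal put in the severe class for its number of leukocytes in spleen and lymph nodes. Both mice carried Foxp3-Cre, which is active in cells that express Foxp3, so in the DKO-severe mouse it deletes the floxed Tet2 and Tet3 genes in regulatory T cells. This driver has been described as leaky, and whether other cells kept both genes was not tested. Former regulatory T cells without Foxp3 cannot be told apart from other Foxp3-negative cells in these counts. There was 1 mouse per genotype. No difference between genotypes therefore has a replicate check, no test was made, and every interval given covers counting error only.

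Cytotoxic lymphocytes store granzymes, a family of serine proteases, in secretory granules together with perforin, which opens the target cell membrane so that granzymes can enter. Serglycin (Srgn) is the proteoglycan that holds the granule contents, Nkg7 is a granule membrane protein, Ctsw is a cathepsin of cytotoxic cells, Fasl kills through the receptor Fas without granules, and Ccl5 is a chemokine that memory and effector cells make in large amounts. CD8 T cells, natural killer cells and some innate-like T cells are the usual sources, while CD4 T cells and regulatory T cells can take up parts of the programme after activation.

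In mm10, which is GRCm38, Gzma spans chr13:113093825-113100981 and Gzmk spans chr13:113171608-113225908 on the minus strand, with 70.6 kb between the gene models and 0 protein-coding genes in the gap (Gencode vM21). Gzmb, at chr14:56258838-56262260, is the end member of a run of 7 granzyme genes at chr14:56117626-56262260, and Gzmm, Prf1 and Srgn lie far apart on chromosome 10. Promoters are shown for Gzma, Gzmb and Gzmk because these 3 genes were found in the same cells in some gates and apart in others. RefSeq (GRCm38.p6) gave a start site for 8 of the 10 genes, and for Ctsw and Ccl5 none was used. Each line holds the 250 bases before the RefSeq start, 5′ to 3′ in the direction of the gene, at chr13:113100982-113101231 for Gzma, chr14:56262335-56262584 for Gzmb and chr13:113180966-113181215 for Gzmk, all on the minus strand, and the Gzmk window lies inside the longer Gencode model of that gene. Capitals mark every match, on either strand, to the RUNX core TGTGGT, the AP-1 site TGANTCA and the T-box core GGTGTGA.
Gzma: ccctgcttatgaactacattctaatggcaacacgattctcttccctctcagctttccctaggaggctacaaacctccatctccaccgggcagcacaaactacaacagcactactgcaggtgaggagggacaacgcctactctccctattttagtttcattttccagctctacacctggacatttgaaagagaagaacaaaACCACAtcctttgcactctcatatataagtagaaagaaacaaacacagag
Gzmb: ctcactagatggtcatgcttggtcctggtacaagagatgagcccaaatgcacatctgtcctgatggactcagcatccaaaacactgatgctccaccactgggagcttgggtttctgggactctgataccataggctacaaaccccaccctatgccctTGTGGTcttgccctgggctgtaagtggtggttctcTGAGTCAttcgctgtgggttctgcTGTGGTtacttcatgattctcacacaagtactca
Gzmk: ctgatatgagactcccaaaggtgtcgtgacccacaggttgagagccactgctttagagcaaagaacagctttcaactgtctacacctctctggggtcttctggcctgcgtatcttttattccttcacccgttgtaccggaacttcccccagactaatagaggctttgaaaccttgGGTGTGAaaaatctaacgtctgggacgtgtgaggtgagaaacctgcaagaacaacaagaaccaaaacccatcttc
The Gzma window held 1 RUNX core at -50 to -45, the Gzmb window held 2 RUNX cores at -93 to -88 and -34 to -29 with an AP-1 site between them at -58 to -52, and the Gzmk window held 1 T-box core at -75 to -69 and none of the other 2 motifs. These motifs did not overlap one another. Among 32851 RefSeq promoter windows of this length, 14.0% held the RUNX core, 6.75% the AP-1 site and 3.33% the T-box core. None of the 3 motifs was found in all 3 promoters. A match is a run of letters, and binding was not measured here.

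The WT matrix held 7189 barcodes with 45294779 UMIs and the DKO-severe matrix 7161 barcodes with 69692053 UMIs, and 6584 and 6359 cells were kept, with medians of 5617 and 8066 UMIs per cell. No barcode was shared. The hashtag counts set the genotypes apart, with a median of 1973 for Hashtag 1 and 110 for Hashtag 2 in WT cells and of 36 and 4726 in DKO-severe cells. Tet2 and Tet3 transcripts did not check the labels, because tags from the 3′ end can be counted from a transcript that lacks a deleted exon: in Foxp3-positive cells, gated as described next, WT and DKO-severe levels were 56.6 and 71.6 CPM for Tet2 and 89.3 and 85.2 CPM for Tet3. Cells were placed in gates by their transcripts. All gates required a UMI of Cd3d, Cd3e or Cd3g. The Cd8 gate (Cd8a or Cd8b1, no Cd4) held 3052 WT and 1735 DKO-severe cells, the Cd4 Foxp3-negative gate 1675 and 2407, the Foxp3-positive gate (Cd4 with Foxp3) 64 and 331, and the innate-like gate (Zbtb16, no Cd8a, Cd8b1 or Foxp3) 88 and 196, of which 20 and 87 were also in the Cd4 Foxp3-negative gate. The list of 6 innate-like T cell markers summed to 1947 CPM in the WT and 1142 CPM in the DKO-severe innate-like gate, against 170 and 318 CPM in the Cd4 Foxp3-negative gate, with the receptor segment Trav11 at 1 UMI in WT and 2 UMIs in DKO-severe cells, and only Il2rb of the 6 was higher in the DKO-severe gate. It is therefore named by its rule and not as a cell type. The 6 regulatory T cell markers summed to 3695 CPM in the WT and 3860 CPM in the DKO-severe Foxp3-positive gate. Only 2 of the 6 were higher in the DKO-severe gate, so near-equal sums do not mean equal levels of each marker. In the Cd4 Foxp3-negative gate they summed to 584 and 1523 CPM. A cell that expresses Foxp3 but gave no Foxp3 UMI falls in that gate, so it is not free of regulatory T cells.

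Marker transcripts of other cells differed between the matrices in every gate. The 6 granulocyte markers were S100a8, S100a9, Ltf, Ngp, Camp and Retnlg. They summed to between 69.5 and 85.2 CPM in the 4 WT gates and to between 1408 and 3916 CPM in the DKO-severe gates. All 6 were higher in DKO-severe cells in each gate. The B cells of the WT and DKO-severe matrices had 83.3 and 81.6 CPM of these markers, and 3374 and 287 CPM of the monocyte or macrophage markers. The WT values rest on 15 B cells with 120031 UMIs, too few for a firm comparison. The 6 monocyte or macrophage markers summed to between 144 and 549 CPM in WT and between 245 and 1354 CPM in DKO-severe gates. The 6 natural killer cell markers went from 27.1 to 78.9 CPM in the Cd8 gate, from 41.6 to 196 CPM in the Cd4 Foxp3-negative gate, from 37.0 to 267 CPM in the Foxp3-positive gate and from 309 to 584 CPM in the innate-like gate. The natural killer list does not mark foreign RNA alone. In the Cd8 gate Ncr1 had 1 WT and 4 DKO-severe UMIs against 42 and 234 of Klrb1c, a gene that went with Gzmb in DKO-severe cells of that gate. The part of other cells in the results below was not tested. Each count of the 10 genes, though not of the other gene lists, is given again without the cells that held 2 or more such markers. That rule can also remove cytotoxic T cells.

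In the Cd8 gate all 4 granzymes were higher in DKO-severe cells. Gzma, a tryptase-like granzyme, stood at 11.9 CPM in WT (95% Poisson interval 10.4 to 13.4, 249 UMIs) and at 722 CPM in DKO-severe cells (710 to 736, 11941 UMIs), a log2 ratio of 5.93 (exact counting interval 5.75 to 6.12). One WT cell held 25.7% of the WT Gzma UMIs, and the ratio was 6.31 once the cell with the most Gzma UMIs was left out of each genotype. The WT level of Gzma rested in part on a single cell, while the highest DKO-severe cell held 3.07% of the UMIs. Gzmb, the granzyme that cleaves after aspartate and activates caspases, was at 4.95 CPM in WT (4.05 to 6.0) and at 150 CPM in DKO-severe cells (144 to 156), a log2 ratio of 4.92 (4.63 to 5.21). Here too 1 WT cell held 33.7% of the WT UMIs, and the ratio was 5.47 without the leading cells. Gzmk, a granzyme of less differentiated effector and memory cells, was at 2.48 CPM (1.85 to 3.25) and 45.9 CPM (42.7 to 49.2), a log2 ratio of 4.21. Gzmm, a granzyme first known from natural killer cells, was at 17.6 CPM (15.8 to 19.5) and 59.5 CPM (55.9 to 63.4), a log2 ratio of 1.76. Gzmm was the most abundant of the 4 granzymes in WT Cd8-gated cells and the third in DKO-severe cells, where Gzma led.

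The genes that granzymes depend on differed far less in the same gate. Prf1 was at 45.2 CPM in WT (42.4 to 48.2) and 69.6 CPM in DKO-severe cells (65.7 to 73.8), a log2 ratio of 0.62 (0.50 to 0.75). Srgn was at 388 and 473 CPM, with a log2 ratio of 0.28, Nkg7 at 499 and 923 CPM, with a ratio of 0.89, and Ctsw at 169 and 240 CPM, with a ratio of 0.50. In this gate the proteases were scarce in WT cells, while transcripts of the pore former Prf1 and the granule matrix gene Srgn were already present in them, at 45.2 and 388 CPM. Fasl was at 3.19 CPM (2.47 to 4.05) and 24.7 CPM (22.3 to 27.2), a log2 ratio of 2.95. Ccl5 was the most abundant of the 10 genes in both genotypes, with 585 CPM in WT against 5668 CPM in DKO-severe cells, a log2 ratio of 3.28 (3.25 to 3.30). Levels of different genes are set side by side here as CPM of UMIs, which in a 3′ assay do not scale with transcript length.

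In all, 6 of the 10 genes (the 4 granzymes, Fasl and Ccl5) were at least 2-fold higher in DKO-severe Cd8-gated cells and 0 were 2-fold lower, beside 2.58% and 1.42% of the 9307 genes with a mean of 5 CPM or more in the gate. The median log2 ratio was 2.36 for the 10 genes and -0.02 for those 9307 genes. The count was also 6 without cells with a Zbtb16 UMI, and without cells that held 2 or more markers of other cells. The latter rule, applied to unthinned counts, left 1787 of 3052 WT and 742 of 1735 DKO-severe cells.

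**Figure D1:**
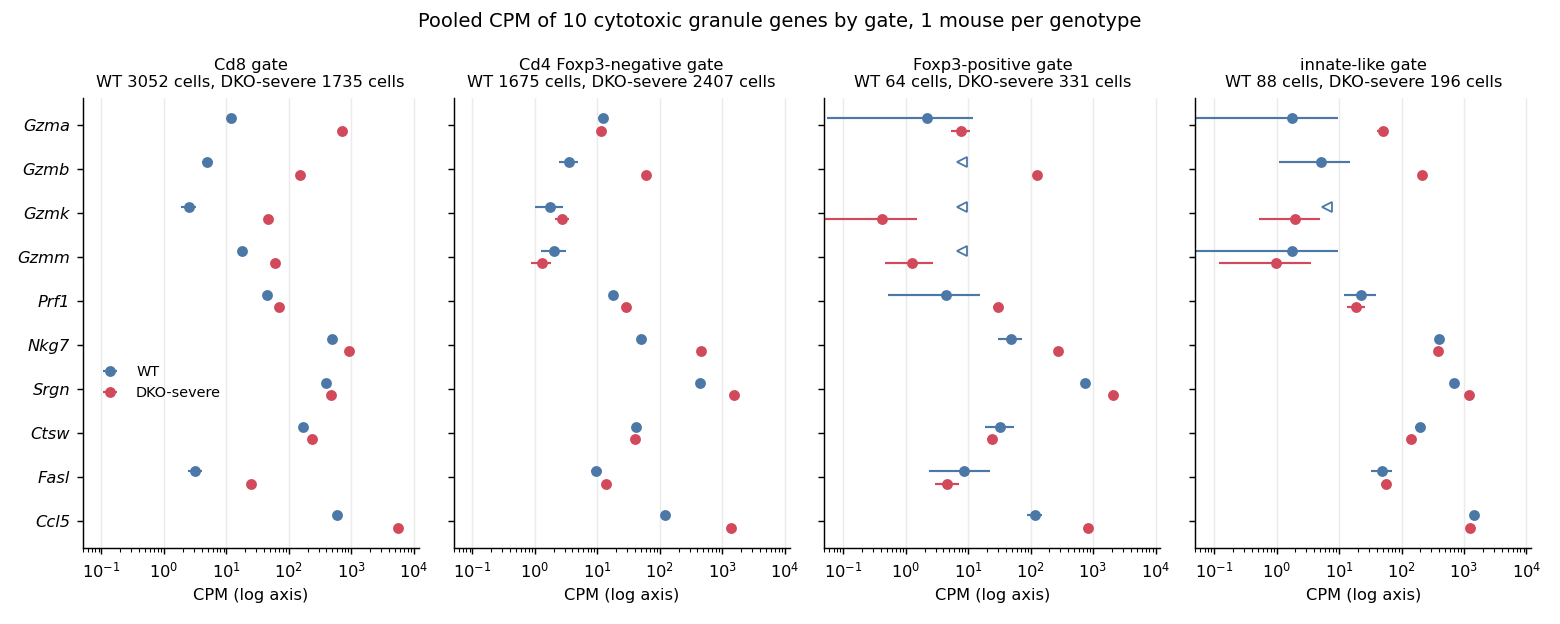
CPM of summed UMIs on a log axis for each of the 10 genes in the 4 gates, WT in blue and DKO-severe in red, with 95% Poisson intervals, and open triangles for the upper limit where WT had 0 UMIs. The red points lie to the right for all 10 genes in the Cd8 gate, whereas in the innate-like gate Nkg7, Ctsw and Ccl5 lie close together or slightly to the left and Gzmb and Srgn lie to the right.

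In the Cd4 Foxp3-negative gate the pattern of granzymes was different. Gzmb went from 3.48 CPM (2.41 to 4.86) in WT to 59.9 CPM (56.8 to 63.1) in DKO-severe cells, a log2 ratio of 4.11 (3.62 to 4.64). Gzma was at 12.5 CPM (10.4 to 14.9) in WT and 11.4 CPM (10.0 to 12.8) in DKO-severe cells, a log2 ratio of -0.14 (-0.45 to 0.19). One cell held 50.8% of the WT and 33.3% of the DKO-severe Gzma UMIs, and without these cells the ratio was 0.31 (-0.12 to 0.75). The Gzma interval thus reached from below to above equal levels, with and without the leading cells. Gzmk (1.74 and 2.75 CPM) and Gzmm (2.04 and 1.29 CPM) were at trace levels in both genotypes. The granule genes stood in another order than in the Cd8 gate: Nkg7 was at 50.4 and 455 CPM (log2 ratio 3.17), Srgn at 449 and 1560 CPM (1.80), Prf1 at 17.9 and 28.6 CPM (0.68) and Ctsw at 41.2 and 39.8 CPM (-0.05). Fasl was at 9.72 and 13.8 CPM (0.51, 0.17 to 0.85) and Ccl5 at 121 and 1411 CPM (3.55, 3.47 to 3.63).

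Gzmb, Nkg7, Srgn and Ccl5 were at least 2-fold higher in DKO-severe cells of the Cd4 Foxp3-negative gate, which is 4 of 10 genes, and 0 were 2-fold lower. Of the 9860 genes with a mean of 5 CPM or more, 11.5% were 2-fold higher and 4.25% 2-fold lower, so the background of this gate was broader than that of the Cd8 gate. Gzmk and Gzmm were under that CPM limit. Leaving out the cells that held 2 or more markers of other cells kept 1048 of 1675 WT and 766 of 2407 DKO-severe cells. In these, 5 genes were 2-fold higher, the Gzmb log2 ratio was 3.09 (2.41 to 3.84) and that of Gzma was 0.98 (0.40 to 1.58).

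The Foxp3-positive gate held 459046 WT and 4719695 DKO-severe UMIs, so WT values were coarse. Gzmb had 0 UMIs in 64 WT cells and 597 UMIs, or 126 CPM (117 to 137), in 331 DKO-severe cells. That is 19.4-fold higher (log2 ratio 4.27) with the WT count set at 3 UMIs, and the lower counting limit of the log2 ratio was 3.97. Prf1 had 2 WT and 140 DKO-severe UMIs, at 4.36 CPM (0.53 to 15.7) and 29.7 CPM (25 to 35), and 34.3% of the DKO-severe UMIs came from 1 cell, without which the log2 ratio was 1.57. Nkg7 was at 47.9 CPM (30.0 to 72.6) in WT and 279 CPM (264 to 294) in DKO-severe cells, a log2 ratio of 2.54. The Gzmb UMIs lay in 52 cells, the highest with 9.72% of them, so Gzmb rested on many cells and Prf1 partly on 1. Srgn was at 734 and 2054 CPM (1.48) and Ccl5 at 118 and 844 CPM (2.84), although 1 WT cell held 53.7% of the WT Ccl5 UMIs and the ratio was 3.78 without the leading cells. Gzma had 1 and 36 UMIs, Gzmk 0 and 2 and Gzmm 0 and 6. Ctsw (32.7 and 24.4 CPM) and Fasl (8.71 and 4.66 CPM) had log2 ratios of -0.42 and -0.90 with intervals from -1.21 to 0.46 and from -2.46 to 1.09.

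With fewer than 3 UMIs raised to 3, Gzmb, Prf1, Nkg7, Srgn and Ccl5 were 2-fold higher in the Foxp3-positive gate, which is 5 of 10 genes, and 0 were 2-fold lower, beside 10.2% and 7.38% of 9862 genes. Gzma, Gzmk and Gzmm were under 5 CPM. Without cells holding 2 or more markers of other cells, which left 32 WT and 68 DKO-severe cells, 4 genes were 2-fold higher and Prf1 was not, with a log2 ratio of 0.24 (-0.93 to 7.24).

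In the innate-like gate Gzmb had the largest ratio of the 10 genes, and Srgn was higher and Ctsw and Ccl5 were lower in DKO-severe cells beyond their counting intervals but by less than 2-fold. Gzmb had 3 UMIs in 88 WT cells, or 5.21 CPM (1.07 to 15.2), and 434 UMIs in 196 DKO-severe cells, or 210 CPM (191 to 231), a log2 ratio of 5.33 with a counting interval from 3.78 to 7.62. Gzma had 1 and 104 UMIs, but 1 DKO-severe cell held 84.6% of them. Gzma and Gzmb are the 2 of 10 genes counted as 2-fold higher in this gate, beside 10.6% of 9338 genes, and Gzma dropped out once that cell was left out. No gene of the 10 was 2-fold lower, beside 3.43% of the 9338 genes, and Gzmk and Gzmm were under 5 CPM. The granule genes were high in both genotypes: Nkg7 was at 403 and 380 CPM (log2 ratio -0.08, -0.30 to 0.13), Srgn at 683 and 1202 CPM (0.82), Ctsw at 196 and 139 CPM (-0.49, -0.81 to -0.17), Fasl at 48.6 and 56.6 CPM (0.22, -0.38 to 0.87), Ccl5 at 1464 and 1267 CPM (-0.21, -0.32 to -0.10) and Prf1 at 22.6 and 18.9 CPM (-0.26, -1.19 to 0.77). Fasl was higher here than in any other gate of either genotype. Without cells holding 2 or more markers of other cells, which left 24 WT and 48 DKO-severe cells, Gzmb, Fasl and Ccl5 were 2-fold higher and the Ccl5 and Ctsw ratios turned to 1.28 and 0.43, so the direction of those 2 genes in this gate rested on which cells were kept.

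A higher CPM can come from more cells with a transcript or from more UMIs in each of them. To separate these at equal depth, every cell with 3800 or more UMIs was thinned at random to 3800, which left out 688 WT and 476 DKO-severe cells. The gates were drawn again, and the Foxp3-positive gate then held 34 WT and 95 DKO-severe cells. Cells that lose their Foxp3 UMIs by thinning can fall in the Cd4 Foxp3-negative gate. The share of cells with a UMI in B cells of the same matrix (Cd79a and Cd79b, no Cd3 transcript), which lack granzymes, served as the background of free RNA. The 194 DKO-severe B cells had a median of 5205 UMIs before thinning, and 1.03% of them had a Gzma UMI, 0.515% Gzmb, 0.515% Gzmk, 1.03% Gzmm, 1.03% Prf1, 5.15% Nkg7, 1.55% Ctsw, 0.515% Fasl and 17.0% Ccl5. Srgn was found in 88.7% of these B cells, so its detection carries no information on cytotoxic cells. Only 12 WT B cells remained, too few for a background in WT.

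In the Cd8 gate at equal depth, the share of cells with Gzma was 2.24% in WT (exact interval 1.74 to 2.85, 2898 cells) and 15.6% in DKO-severe cells (13.8 to 17.5, 1568 cells). The mean was 2.55 UMIs per positive WT cell and 24.0 per positive DKO-severe cell, the medians were 1 and 19.5, and 7.69% of positive WT cells but 74.2% of positive DKO-severe cells had 5 or more UMIs. Both the number of Gzma-positive cells and the content of each were higher in DKO-severe cells. The WT share lay inside the interval of the DKO-severe B cells (0.13 to 3.67), and 81.5% of positive WT cells held 1 UMI. Most positive WT cells therefore cannot be told apart from cells with free RNA. Gzmb was detected in 1.10% (0.76 to 1.56) and 18.6% (16.7 to 20.6), with means of 1.41 and 3.87 UMIs per positive cell. Gzmk was detected in 0.828% and 12.3%, with means of 1.25 and 2.02 UMIs, and Gzmm in 3.76% and 12.7%, with means of 1.59 and 1.71. For these 3 granzymes the difference lay mostly in the number of cells. Fasl behaved likewise, at 1.04% and 9.50% of cells with 1.10 and 1.27 UMIs each. The WT shares of Gzmb, Gzmk and Fasl also lay inside the B cell interval, which was 0.01 to 2.84 for each of them. Ccl5 went from 30.3% to 68.0% of cells and from 7.18 to 41.4 UMIs per positive cell, with 5 or more UMIs in 26.6% and 76.7% of the positive cells. Prf1 was detected in 15.3% (14.0 to 16.6) and 22.9% (20.8 to 25.1), Nkg7 in 75.7% and 87.6%, and Ctsw in 43.7% and 55.9%. Without thinning, the shares with Gzma, Gzmb and Gzmk were 3.34%, 2.10% and 1.21% in WT and 21.5%, 24.2% and 16.7% in DKO-severe cells. Gzma was found in 373 of 1735 DKO-severe cells without thinning and in 244 of 1568 at equal depth. The depth limit leaves out shallow cells, and granzyme-positive DKO-severe cells were shallower than the rest, as given below. Equal-depth shares therefore describe only cells that reached the limit. How far the limit or the loss of UMIs lowered the DKO-severe shares was not tested.

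**Figure D2:**
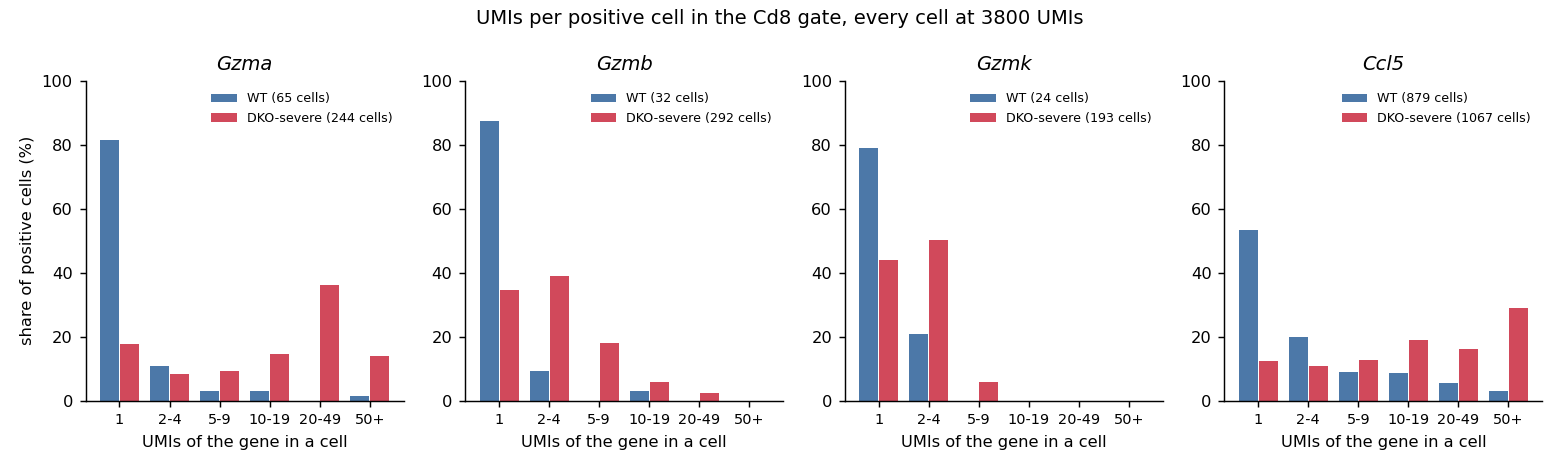
Share of positive cells of the Cd8 gate, in percent, by the number of UMIs of Gzma, Gzmb, Gzmk and Ccl5 in the cell, with every cell at 3800 UMIs, WT in blue and DKO-severe in red. In WT 81.5% of the 65 Gzma cells held a single UMI, while in the DKO-severe mouse 36.1% of the 244 Gzma cells held 20 to 49 UMIs and 13.9% held 50 or more.

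Outside the Cd8 gate, detection separated Gzmb from the other granzymes. In the Cd4 Foxp3-negative gate the share with Gzmb was 0.817% in WT (0.39 to 1.5, 1224 cells) and 6.83% in DKO-severe cells (5.72 to 8.07, 1846 cells), with means of 1 and 3.25 UMIs per positive cell. Gzma was detected in 2.86% of WT (2.00 to 3.96) and 1.95% of DKO-severe cells (1.37 to 2.69), and the latter interval overlaps that of the DKO-severe B cells (1.03%, 0.13 to 3.67). Gzmk (0.490% and 0.596%) and Gzmm (0.654% and 0.704%) lay near the B cell shares. The shares of Gzma, Gzmk and Gzmm in DKO-severe Cd4 Foxp3-negative cells therefore did not stand above that of B cells. Gzmm had 1 UMI in each positive cell, while 45.5% of the 11 Gzmk-positive and 16.7% of the 36 Gzma-positive cells had 2 or more, against 1 UMI in each positive B cell. Prf1 was detected in nearly equal shares, 5.31% and 4.93%, but with means of 1.11 and 2.44 UMIs per positive cell. Nkg7 was detected in 9.97% and 28.1%, with 2.20 and 7.45 UMIs per positive cell. Ccl5 was detected in 22.2% and 29.0%, and the mean went from 2.01 to 24.0 UMIs per positive cell. Counted at 1 or more UMIs, Ccl5 and Prf1 differed in content per positive cell more than in the number of positive cells. That split depends on the limit, since 81.6% of the 272 Ccl5-positive WT cells held 1 UMI. Of positive WT and DKO-severe cells, 5.15% and 43.7% had 5 or more Ccl5 UMIs, and 9.23% and 48.4% had 2 or more Prf1 UMIs. Cells with several UMIs of either gene were thus more numerous in DKO-severe cells.

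In the Foxp3-positive gate at equal depth, 0 of 34 WT cells had a Gzmb UMI (exact interval 0 to 10.3%), and 15 of 95 DKO-severe cells had one, or 15.8% (9.12 to 24.7), with a mean of 4.07 UMIs. Nkg7 was detected in 6 of 34 (17.6%, 6.76 to 34.5) and 34.7% (25.3 to 45.2), and Prf1 in 2 of 34 (5.88%, 0.72 to 19.7) and 10.5% (5.16 to 18.5). Ccl5 was detected in 23.5% (10.7 to 41.2) and 31.6% (22.4 to 41.9). The intervals of the 2 genotypes overlap for each of these genes, Gzmb among them. Gzmk and Fasl were found in 0 of 34 and 0 of 95 cells, with exact upper bounds of 10.3% and 3.81%, and without thinning Fasl was found in 4 of 64 and 19 of 331 cells (6.25% and 5.74%). In the innate-like gate Gzmb was detected in 52 of 136 DKO-severe cells (38.2%, 30.0 to 47.0), the highest share of any gate, against 2 of 80 in WT (2.50%, 0.30 to 8.74). For the other members the intervals of the 2 genotypes overlapped in the innate-like gate, with Nkg7 at 53.8% and 65.4%, Ctsw at 45.0% and 47.8%, Fasl at 17.5% and 26.5%, Ccl5 at 68.8% and 74.3% and Prf1 at 8.75% and 10.3% in WT and DKO-severe cells. Of the DKO-severe Gzmb cells in that gate, 13 were among the 38 cells with a Cd4 UMI and 39 among the 98 without.

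**Figure D3:**
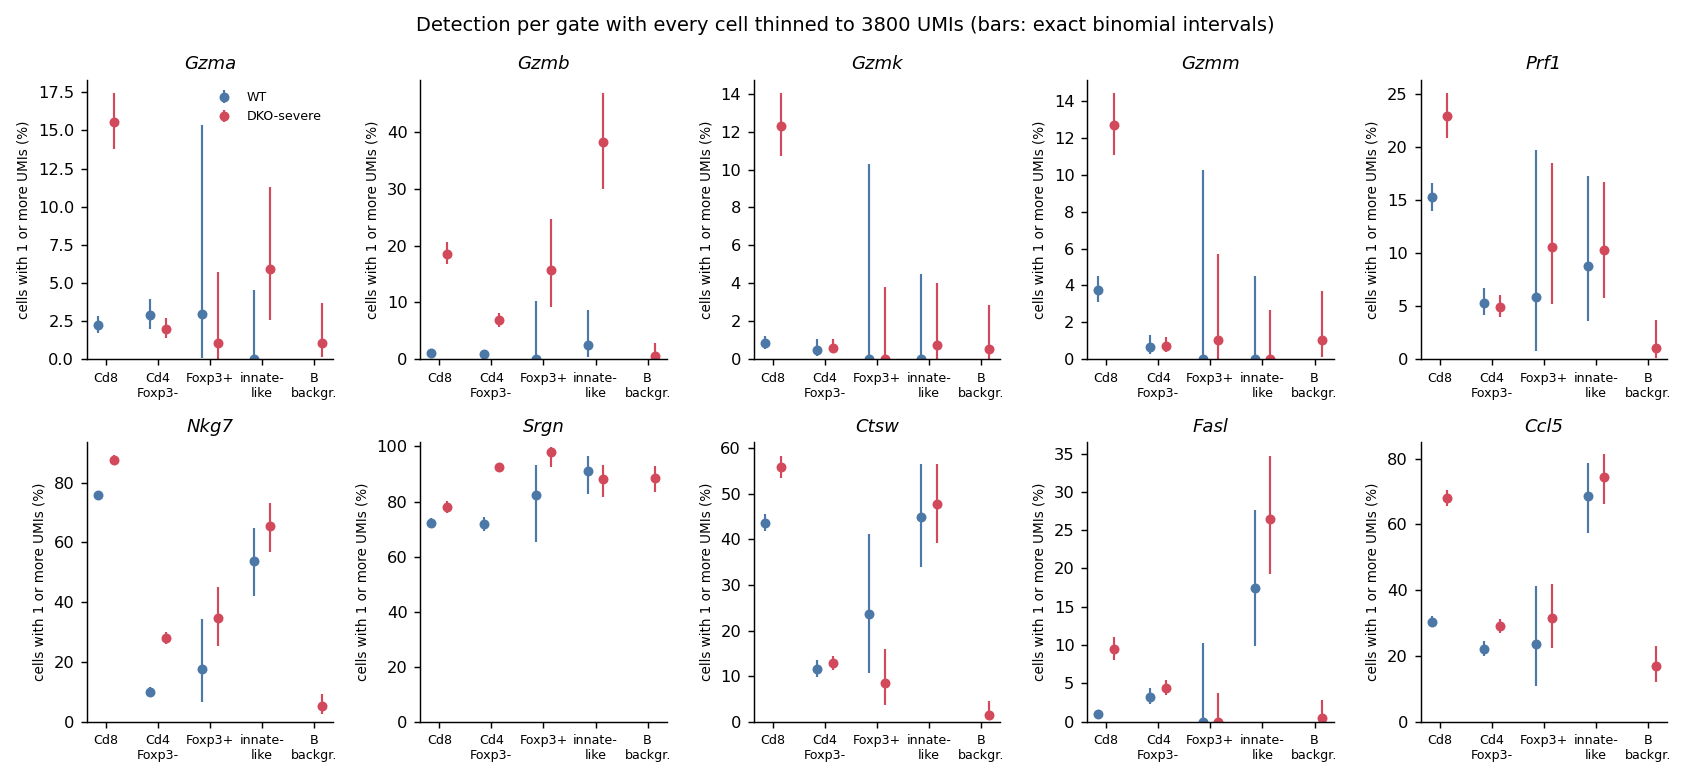
Share of cells with 1 or more UMIs of each gene, in percent, by gate, with every cell thinned to 3800 UMIs, WT in blue and DKO-severe in red, with exact 95% binomial intervals, and with DKO-severe B cells as background (the 12 WT B cells are left out). Gzma, Gzmk and Gzmm rise above background in the Cd8 gate of DKO-severe cells, whereas Gzmb does so in all 4 gates and most in the innate-like gate at 38.2%.

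The granzymes shared cells in the DKO-severe Cd8 gate. Of 1568 cells, 384 (24.5%, 22.4 to 26.7) had Gzma, Gzmb or Gzmk, against 112 of 2898 WT cells (3.86%, 3.19 to 4.63). These shares, too, cover only cells that reached the depth limit. The commonest pattern in DKO-severe cells was all 3 granzymes together, in 114 cells (7.27%), followed by Gzmb alone in 80, Gzma with Gzmb in 78, Gzmk alone in 40, Gzma alone in 33, Gzmb with Gzmk in 20 and Gzma with Gzmk in 19. In WT 1 cell had all 3, while 58 had only Gzma, 28 only Gzmb and 18 only Gzmk. Gzmb was detected in 192 of 244 Gzma-positive DKO-severe cells (78.7%, 73.0 to 83.7) and in 7.55% of Gzma-negative cells. Gzmk was detected in 54.5% of Gzma-positive (48.0 to 60.9) and 4.53% of Gzma-negative cells, and in 45.9% of Gzmb-positive and 4.62% of Gzmb-negative cells. Gzmm shared these cells less: it was detected in 23.0% (17.8 to 28.7) of Gzma-positive and 10.8% of Gzma-negative cells, and 143 of the 199 Gzmm-positive cells had no Gzma. Prf1 was detected in 57.4% of Gzma-positive and 16.5% of Gzma-negative cells, Fasl in 33.2% and 5.14%, Ccl5 in 98.0% and 62.5%, and Ctsw in 61.1% (54.6 to 67.2) and 54.9%. At least 8 of the 10 genes were detected in 85 DKO-severe Cd8-gated cells (5.42%) and in 3 WT cells (0.104%), and 1 or more DKO-severe cells had all 10.

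Granzyme-positive DKO-severe cells of the Cd8 gate had fewer UMIs than the rest of the gate, and those with Gzma or Gzmb more often held markers of other cells. Before thinning the median was 5697 UMIs in Gzma-positive and 9949 in Gzma-negative DKO-severe cells, 6298 and 9957 with and without Gzmb, and 5874 and 9864 with and without Gzmk, while in WT the medians with and without Gzma were 6441 and 6342. At least 2 markers of other cells were found in 36.9% (30.8 to 43.3) of Gzma-positive and 21.1% (18.9 to 23.4) of Gzma-negative DKO-severe cells, with the natural killer cell list reaching 2 markers in 4.92% and 0.755%. The shares were 38.4% (32.8 to 44.2) and 20.1% (18 to 22.4) with and without Gzmb, and 28.5% (22.2 to 35.4) and 22.8% (20.6 to 25.1) with and without Gzmk, where the intervals overlap. The share with any of the 3 granzymes was 21.0% of DKO-severe and 3.66% of WT cells without such cells, and Gzmb was then detected in 73.4% of Gzma-positive cells.

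**Figure D4:**
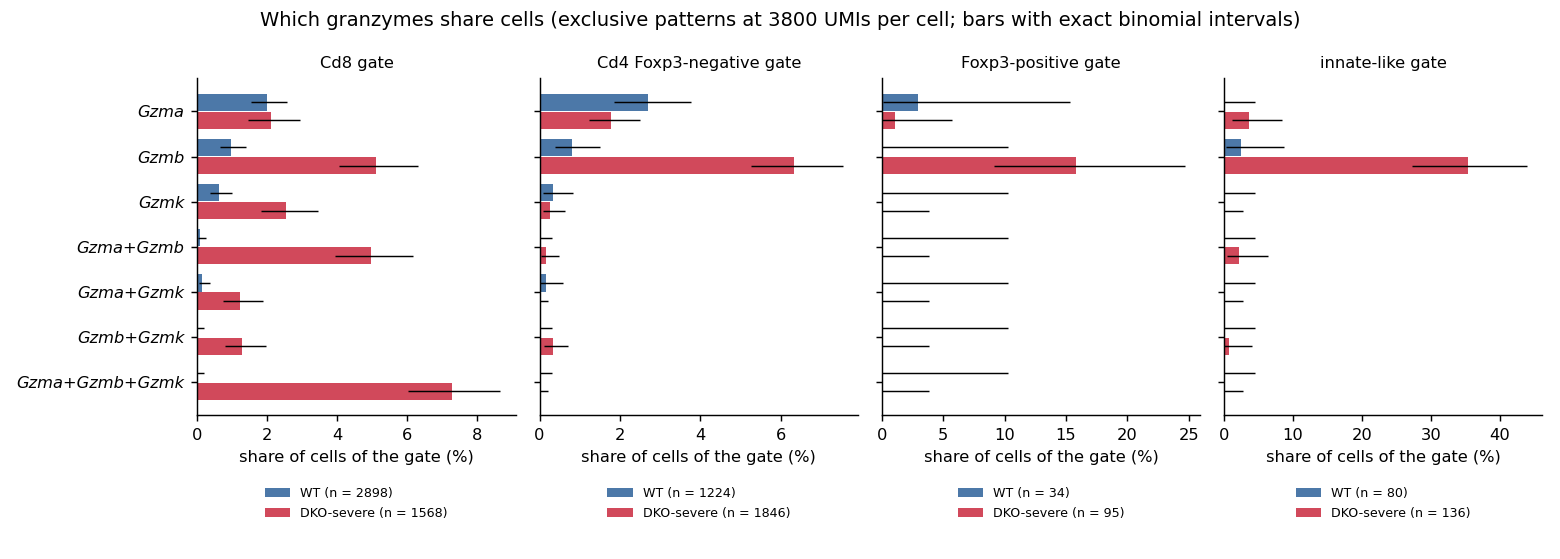
Share of the cells of each gate, in percent, that fell into each exclusive pattern of Gzma, Gzmb and Gzmk detection at 3800 UMIs per cell, WT in blue and DKO-severe in red, with exact 95% binomial intervals. The pattern with all 3 granzymes, at 7.27% of DKO-severe Cd8-gated cells, is at 0 of the DKO-severe cells in the other 3 gates, where Gzmb alone leads.

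In the other gates most Gzmb-positive cells had neither of the other 2 granzymes. Of 126 Gzmb-positive DKO-severe cells in the Cd4 Foxp3-negative gate, 117 had neither Gzma nor Gzmk, 3 had Gzma and 6 had Gzmk. In the innate-like gate 48 of 52, and in the Foxp3-positive gate 15 of 15, had neither. Gzma was detected in 2.38% of Gzmb-positive Cd4 Foxp3-negative cells (0.49 to 6.80) and in 65.8% of Gzmb-positive Cd8-gated cells (60.0 to 71.2), and the intervals do not overlap. Gzmk was detected in 4.76% of Gzmb-positive Cd4 Foxp3-negative cells (1.77 to 10.1) and 0.291% of Gzmb-negative ones (0.094 to 0.677). Prf1 went with Gzmb in the Cd4 Foxp3-negative gate, in 35.7% of Gzmb-positive (27.4 to 44.7) and 2.67% of Gzmb-negative cells, and in the Cd8 gate, in 45.9% and 17.6%. Prf1 did not do so in the innate-like gate, where it was detected in 9.62% (3.20 to 21.0) and 10.7% of cells with and without Gzmb, although these cells are few. Nkg7 and Ccl5 went with Gzmb in all 4 gates: Ccl5 was detected in 97.9% and 61.2% of Cd8-gated cells with and without Gzmb, in 78.6% and 25.3% of Cd4 Foxp3-negative cells, in 66.7% and 25% of Foxp3-positive cells and in 96.2% and 60.7% of innate-like cells.

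**Figure D5:**
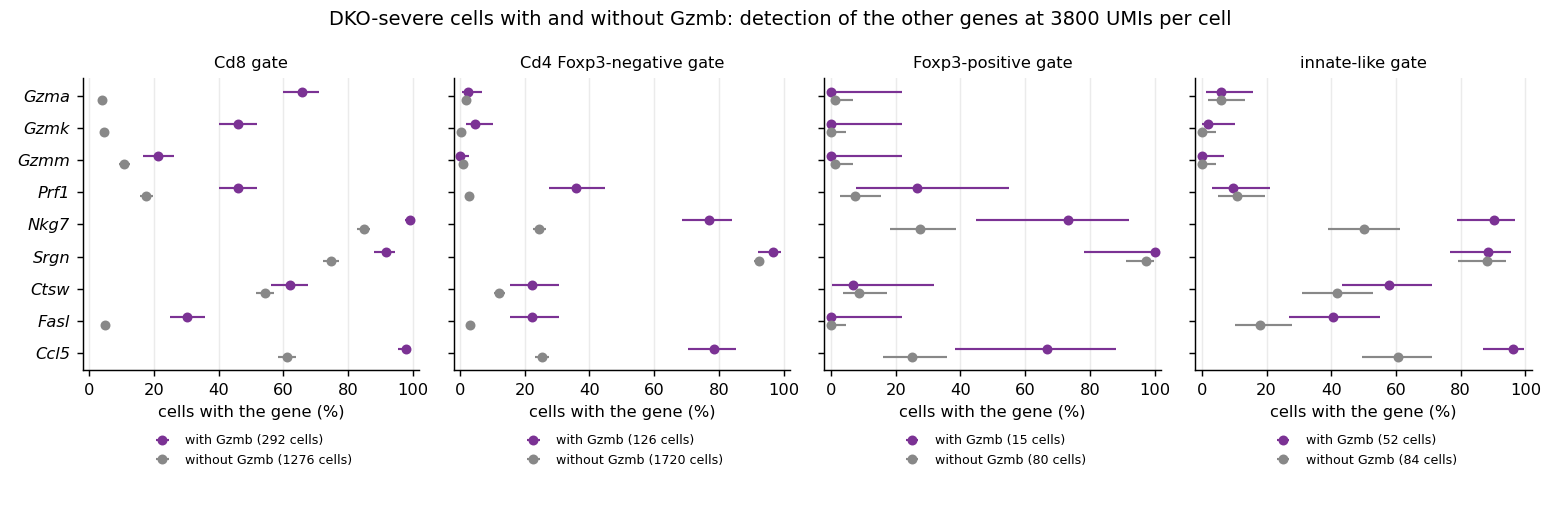
Share of DKO-severe cells, in percent, with each of the other 9 genes among cells with Gzmb (purple) and without Gzmb (grey) in each gate, at 3800 UMIs per cell, with exact 95% binomial intervals. The intervals of the 2 sets of cells do not overlap for Gzma in the Cd8 gate only, for Gzmk and Prf1 in the Cd8 and Cd4 Foxp3-negative gates, and for Nkg7 and Ccl5 in all 4 gates.

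Other genes marked the granzyme patterns of DKO-severe Cd8-gated cells. The 5 genes outside the 10 with the highest ratio of CPM in Gzma-positive over Gzma-negative cells were Klrg1 (log2 ratio 5.51), Cx3cr1 (5.07), S1pr5 (4.84), Zeb2 (4.72) and Klra9 (3.95). Klrg1 and Cx3cr1 mark terminal effector CD8 cells, S1pr5 directs exit from tissue into blood, and Zeb2 is a transcription factor of terminal effector cells. For Gzmb they were Itga1 (4.31), a collagen-binding integrin of tissue-resident cells, Klrg1 (4.01), Cx3cr1 (3.96), the natural killer receptor gene Klrb1c (3.9) and Klra9 (3.81), and for Gzmk they were Klrg1 (4.01), Cx3cr1 (3.47), Hip1 (3.17), Klre1 (2.84) and Zeb2 (2.82). Klrg1 and Cx3cr1 were in all 3 lists. These lists were ranked on the same cells and are a description.

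The patterns differed among themselves within the Cd8 gate. Cx3cr1 was detected in 58.3% (51.0 to 65.4) of cells with both Gzma and Gzmb, 24.2% of cells with Gzma without Gzmb and Gzmk, 8.75% (3.59 to 17.2) of cells with Gzmb without the other 2, 7.5% of cells with Gzmk without the other 2 and 1.35% of cells with none. Klrg1 was also highest in cells with both and lowest in cells with none, at 37.0% in cells with Gzma and Gzmb, 9.09% with Gzma alone, 1.25% with Gzmb alone, 7.5% with Gzmk alone and 0.507% with none, and Zeb2 was at 73.4%, 33.3%, 17.5%, 22.5% and 3.55%. These 3 genes were among those ranked highest for Gzma in these same cells. Their higher shares in cells with Gzma and Gzmb than in cells with Gzmb alone are therefore a description and no separate result. The class with Gzma and Gzmb held 114 cells that also had Gzmk and 78 that did not. Klrk1, which encodes the receptor NKG2D, was detected in 75.0%, 33.3%, 33.8%, 27.5% and 6.67% of these classes. Eomes, a T-box factor of memory cells, was detected in 47.5% (31.5 to 63.9) of the 40 cells with Gzmk alone, 22.9% (17.2 to 29.5) of cells with Gzma and Gzmb and 19.8% of cells with none. Tcf7, a factor of naive and memory cells, was detected in 22.4% of cells with Gzma and Gzmb, 57.5% with Gzmb alone and 66.3% with none. Mki67, a gene of dividing cells, was detected in 4.17% of cells with Gzma and Gzmb (1.82 to 8.04) and 3.29% of cells with none.

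In the Cd4 Foxp3-negative gate the 117 DKO-severe cells with Gzmb without Gzma and Gzmk carried another set of genes. Eomes was detected in 26.5% (18.8 to 35.5) of them and 2.38% of the 1682 cells with none of the 3, Ifng, the interferon gamma gene, in 29.9% and 3.92%, Ccl3 in 36.8% and 6.42%, Ccl4 in 45.3% and 8.74%, Cxcr6 in 34.2% and 12.4% and Serpinb6b, a serine protease inhibitor, in 36.8% and 12.2%. Zeb2 (5.98% and 7.55%) and Cx3cr1 (4.27% and 3.39%) did not differ beyond their counting intervals, in contrast to the Cd8 gate. Tcf7 was detected in 14.5% (8.70 to 22.2) of them and 56.2% of cells with none, and Lag3, a receptor of activated cells, in 48.7% (39.4 to 58.1) and 37.5% (35.2 to 39.9). At least 2 markers of other cells were found in 42.9% of Gzmb-positive and 37.0% of Gzmb-negative cells of this gate, with overlapping intervals of 34.1 to 52.0 and 34.7 to 39.3.

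Foxp3-positive DKO-severe cells were compared without thinning, which gave 52 cells with Gzmb and 279 without, of similar depth (medians of 12741 and 11528 UMIs). Foxp3 itself was at 109 and 122 CPM (log2 ratio -0.17, -0.51 to 0.16) and Il2ra at 163 and 163 CPM. These 2 did not differ beyond counting error. Ikzf2 was lower with Gzmb, at 2185 and 2713 CPM (-0.31, -0.39 to -0.24). The remaining markers of the regulatory T cell list did not all go the same way. Among them was a gene higher with Gzmb beyond its counting interval. Prf1 was at 156 CPM with Gzmb and 3.58 CPM without (5.45, 4.65 to 6.36), Nkg7 at 1113 and 107 CPM (3.38) and Ccl5 at 4341 and 122 CPM (5.15). The cells with Gzmb held 126 Prf1 UMIs and those without held 14, whereas Srgn was at 2474 and 1967 CPM (0.33). Eomes was at 27.2 and 1.53 CPM (4.15), Tbx21 at 47.0 and 8.44 CPM (2.48), Klrg1 at 78 and 6.65 CPM (3.55) and Tcf7 at 35.9 and 145 CPM (-2.02), while Zeb2 was lower with Gzmb, at 11.1 and 73.9 CPM (-2.73, -3.87 to -1.78). Gzma was at 17.3 and 5.62 CPM from 14 and 22 UMIs.

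In the innate-like gate, the 48 DKO-severe cells with Gzmb without Gzma and Gzmk were set beside the 79 cells with none of the 3 granzymes. Cxcr6 was detected in 87.5% and 54.4%, Il7r in 95.8% and 81.0%, Lyst, a regulator of granule size, in 77.1% and 51.9%, and Xcl1 in 33.3% and 21.5%. Both sets are small, and these shares are a description without intervals. The monocyte or macrophage list reached 2 markers in 0% of the 52 cells with Gzmb and in 21.4% of the 84 cells without. At least 2 markers of any of the other cell types were found in 50% (35.8 to 64.2) and 46.4% (35.5 to 57.6) of them.

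Genes around the granzyme pathway were counted by lists at 2-fold, beside the background given for each gate. Among the 11 genes of granule loading, maturation and release, 2 were higher in the Cd8 gate (Serpinb9 at 9.86 and 27.8 CPM and Serpinb6b at 14.8 and 55.0 CPM, both protease inhibitors), 5 in the Cd4 Foxp3-negative gate, 5 in the Foxp3-positive gate and 3 in the innate-like gate, and 0 were lower in any of the 4. In the Cd4 Foxp3-negative gate Cst7, an inhibitor of the protease that activates granzymes, went from 24.6 to 222 CPM and Stx11, a fusion protein of granule release, from 14.1 to 64.7 CPM. The release genes Unc13d, Stxbp2 and Rab27a stayed under 2-fold in all 4 gates, with Rab27a nearest at 44.0 and 83.1 CPM in the Cd8 gate. The list medians of the log2 ratio were 0.31, 0.57, 0.90 and 0.54, beside -0.02, 0.10, 0.06 and 0.03 for all genes tested in the 4 gates. Of the 6 other granzymes, 1 was 2-fold higher in the Cd8 gate, 2 in the Cd4 Foxp3-negative gate and 0 in the other 2 gates. The Cd8 gate call was Gzmc at 6 and 14 UMIs, or 0.286 and 0.847 CPM (log2 ratio 1.57, 0.10 to 3.23). That is under the 5 CPM limit of the background genes. Gzmc went from 0.818 to 11.1 CPM (8 and 257 UMIs) in the Cd4 Foxp3-negative gate, Gzmf had 1 and 31 UMIs there, and Gzmd, Gzme, Gzmg and Gzmn had 0 or 1 UMI in every gate. These genes lie beside Gzmb and are close in sequence, and reads that match more than 1 gene are not counted, so their values are uncertain.

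Among the 6 death ligands and effector cytokines, 4 were higher in the Cd8 gate and 4 in the Cd4 Foxp3-negative gate, with Ccl4 at 17.2 and 131 CPM in the former and 11.8 and 600.5 CPM in the latter, and Ifng at 2.91 and 23.4 CPM and 7.36 and 23.1 CPM. In the Foxp3-positive gate 3 were higher and Tnf was lower (78.4 and 22.0 CPM, 36 and 104 UMIs), and in the innate-like gate 2 were higher and Xcl1 was lower (158 and 51.3 CPM). Of 7 effector transcription factors, 5, 5, 6 and 2 were higher in the Cd8, Cd4 Foxp3-negative, Foxp3-positive and innate-like gates, with Zeb2 at 15.9 and 132 CPM and Bhlhe40 at 4.0 and 29.0 CPM in the Cd8 gate, and Tbx21 was lower in the innate-like gate (120 and 57.6 CPM). Of 11 effector and memory surface genes, 7, 7, 6 and 2 were higher in the same order of gates, and 0, 0, 1 and 2 lower. Of 5 naive genes, 2, 4, 4 and 0 were lower, with Lef1 at 995 and 548 CPM in the Cd8 gate and 1122 and 250 CPM in the Cd4 Foxp3-negative gate. Of 6 proliferation genes, 1, 5, 2 and 5 were higher. The list medians of the log2 ratio for proliferation genes were 0.59, 1.95, 0.77 and 1.88. In the Cd8 gate the other list medians were 1.97 for death ligands and cytokines, 1.39 for transcription factors and 1.45 for surface genes.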

How the data were processed

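TCRβ+ cells of 1 WT and 1 DKO-severe mouse were sequenced with 10x Genomics 3′ chemistry v3.1. The authors deposited UMI counts per gene and hashtag counts per barcode as 10x matrices, made with Cell Ranger 7.1.0 on mm10 and not normalized, and per the labels Hashtag 1 is WT and Hashtag 2 DKO. Kept were cells of 500 or more genes whose mitochondrial UMIs were no more than 10%, 3 barcodes with the wrong hashtag were left out, and the highest 6% of Scrublet scores per matrix were removed (scanpy 1.11.5), since the automatic threshold marked 0 cells. UMIs were summed per gate and given as CPM with exact Poisson intervals, shares with exact Clopper-Pearson intervals, and ratios with exact conditional intervals (95%, scipy 1.17.1, Python 3.11.15). Fewer than 3 UMIs were counted as 3 in a ratio, and genes with a mean of 5 CPM and 20 UMIs formed the background. Detection used cells thinned to 3800 UMIs. The ratio and thinning steps were tested on simulated data. Genes named were the 10 members, the genes of the lists in the text, and, for each of Gzma, Gzmb and Gzmk, the 5 genes with the highest ratio between Cd8-gated DKO-severe cells with and without it. The members and lists were chosen with earlier results of these data known. Alternatives were another seed, depth, gate, doublet or mitochondrial limit, positive-cell limit, CPM total, pseudocount and cell weight, and leaving out cells with other cells' markers. Gene positions came from Gencode vM21 and promoters from RefSeq. The values of 1 listed gene are not reported here. With 1 mouse per genotype no test was made.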

Additional observations from a re-analysis of the deposited data

Results flagged for a closer look

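A pair of members moved in opposite directions between gates, and these differences between gates were not tested, since each gate had 1 mouse per genotype. The log2 ratio of Ccl5 in DKO-severe over WT cells was 3.28 in the Cd8 gate, 3.55 in the Cd4 Foxp3-negative gate and 2.84 in the Foxp3-positive gate, but -0.21 in the innate-like gate. The log2 ratio of Ctsw was 0.50 in the Cd8 gate and -0.49 in the innate-like gate.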

How the results depend on the processing

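No paired analysis was possible because there was 1 mouse per genotype and no replicate number. Of 41 recomputed counts of genes at 2-fold, 36 stayed within 1.5 times the reported count. Of 358 recomputed log2 ratios, 281 stayed inside the reported counting interval and 71 moved outside it. A further 6 reversed a direction that the reported interval had set apart from 0. In all, 18 of the 358 changed sign, whether set apart from 0 or not. Of 56 recomputed shares with a granzyme, 23 moved outside the reported interval, as did 8 of 21 recomputed shares of 1 granzyme among cells with another. The Foxp3-positive count was 3 with 2 or more UMIs for each gating transcript, and the innate-like count was 1 with the highest 12% of Scrublet scores removed, with 2 or more gating UMIs, without Cd4 cells, and without the leading cell of each gene, an alternative chosen after seeing the data. The innate-like log2 ratio of Ctsw turned to 0.43 without cells holding other cells' markers, 0.045 with equal weight per cell and 0.24 without Cd4 cells, and that of Ccl5 to 1.28 without such marker cells, 0.25 with 2 or more gating UMIs and 0.39 with Cd8 cells kept. The share with Gzma, Gzmb or Gzmk moved with depth: in the Cd8 gate to 3.05%, 5.53% and 6.23% in WT at 2500 UMIs, at 6000 UMIs and unthinned, and to 18.2% at 6000 UMIs and 33.5% unthinned in DKO-severe cells. In the Cd4 Foxp3-negative gate it was 5.97% in WT and 12.6% in DKO-severe cells unthinned, and 7.5% in DKO-severe cells at 2500 UMIs. In the Foxp3-positive gate it was 0% in WT under another seed, at 2500 and at 6000 UMIs and with 2 or more granzyme UMIs, and 8.77% in DKO-severe cells at 2500 UMIs. In the innate-like gate it was 0% in WT at 2500 and 6000 UMIs, with 2 or more granzyme UMIs and without marker cells. With 2 or more granzyme UMIs it was 0.656% and 17.6% in the Cd8 gate, 0.0817% and 4.28% in the Cd4 Foxp3-negative gate, and 27.2% in DKO-severe innate-like cells. Without marker cells it was 21.0% in DKO-severe Cd8-gated cells. Gzmb among Gzma-positive cells was 70.8% at 2500 UMIs, 67.6% at 6000 UMIs, 70.0% unthinned and 67.7% with 2 or more UMIs. Gzmk among Gzma-positive cells was 44.9% at 2500 UMIs, 47.1% at 6000 UMIs and 37.3% with 2 or more UMIs, and Gzmk among Gzmb-positive cells was 35.6% with 2 or more UMIs. The cause of these changes was not tested. WT shares in the Foxp3-positive and innate-like gates rest on 34 and 80 cells, and 0 there is not absence.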

Other observations

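Granzyme transcripts were spread over the cells in different proportions. Of 13627 Gzma UMIs in retained DKO-severe cells, 87.6% lay in the Cd8 gate, which held 27.3% of the cells, 6.02% in Cd3-positive cells with neither Cd4 nor Cd8 transcripts and 3.99% in cells with both. Of 5666 Gzmb UMIs, 43.6% lay in the Cd8 gate, 24.6% in the Cd4 Foxp3-negative gate, 10.5% in the Foxp3-positive gate, which held 5.21% of the cells, 9.58% in cells with neither Cd4 nor Cd8 transcripts and 5.77% in cells with both. Of 945 Gzmk UMIs, 80.2% lay in the Cd8 gate and 6.98% in cells with neither. In WT, 45.2% of 551 Gzma UMIs and 52.8% of 197 Gzmb UMIs lay in the Cd8 gate, which held 46.4% of the cells.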
